A study of Homo sapiens with 2 samples.

Results

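Histone genes were followed in HT-29 cells, an established line from a human colorectal adenocarcinoma, after knockdown of IFITM1. Members were all probe sets annotated to a linker or core histone gene of the replication-dependent clusters, to the replacement histones H1-10, H2AX, H2AZ1, MACROH2A1, H2AJ, H3-3A and H3-3B, or to SLBP. This gave 105 of the 54675 probe sets on the array. Of these, 77 named 1 gene and 28 named several, and the 77 covered 56 of 19775 genes. A further 20 histone genes were read only by probe sets that name several genes. They were 40 replication-dependent genes, 6 replacement genes, 8 germline genes or pseudogenes, the H2B-like gene H2BC12L and SLBP. H3-3B was read only by probe sets that also name H3-3A. The siIFITM1 sample received a small interfering RNA (siRNA) against IFITM1, an interferon-induced membrane protein, and the siLuc sample received one against firefly luciferase, which these cells lack. RNA was taken 72 h after transfection from both, and each sample was read on 1 array. The labels name no clone and give no count of siRNAs per target, and both samples carry the transfection itself. With 1 array per siRNA there is no spread between replicates, so no test or p-value is given and every difference is described by its size.

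Histones are the proteins around which DNA is wound. The core histones H2A, H2B, H3 and H4 form the nucleosome, and the linker histone H1 binds where DNA enters and leaves it. Replication-dependent histone genes lie in clusters, lack introns and are transcribed mainly in S phase, when new DNA must be packaged. Their mRNAs usually end in a stem-loop rather than a poly(A) tail, and SLBP, the stem-loop binding protein, takes part in their processing, translation and decay. Replacement histones are made throughout the cell cycle from polyadenylated mRNAs and enter chromatin independently of replication, while H2AX mRNA can take either form. The labelling reaction started from an oligo(dT) primer, per the labels' protocols, so mRNAs without a tail are read incompletely, and the share of each histone mRNA that was read was not measured.

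IFITM1 itself had a signal of 237 with siIFITM1 and 640 with siLuc, which is 37.1% of siLuc. Of 12 markers of colon epithelium 9 passed the filter on dim signals, among them EPCAM, KRT8 and KRT20, while CDX1, CDX2 and GPA33 did not. Of the measured markers of other cells, 1 of 3 leukocyte, 3 of 5 fibroblast and 1 of 3 endothelial genes passed. Their summed signals with siIFITM1 and siLuc were 275 and 313 for leukocytes, 723 and 600 for fibroblasts, and 186 and 175 for endothelium. Fibroblast markers moved apart, with LUM at 386 and 132 (log2 ratio 1.54), COL1A1 at -0.49 and DCN at -0.51. None was at 0, and their part in the histone values was not tested.

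The promoters of the 4 replication-dependent genes with the lowest ratios above the filter are shown beside that of H2AZ1. Among probe sets that name 1 gene, H2AZ1 is the replacement gene with the brightest. These classes are compared below, where their median ratios differ and their ranges overlap. Each sequence is the 250 bases before the start in RefSeq (build GRCh38.p14), 5′ to 3′ on the gene's strand. Capitals mark matches on either strand to TATAAA (the TATA box), CCAAT and ATTTGCAT (the octamer, a site for OCT transcription factors known from H2B promoters), and any overlap was allowed. H1-3 lies at chr6:26234988-26235237 (minus), H2AC17 at chr6:27893186-27893435 (minus), H1-2 at chr6:26056471-26056720 (minus), H2BC9 at chr6:26251364-26251613 (plus) and H2AZ1 at chr4:99950276-99950525 (minus).
H1-3: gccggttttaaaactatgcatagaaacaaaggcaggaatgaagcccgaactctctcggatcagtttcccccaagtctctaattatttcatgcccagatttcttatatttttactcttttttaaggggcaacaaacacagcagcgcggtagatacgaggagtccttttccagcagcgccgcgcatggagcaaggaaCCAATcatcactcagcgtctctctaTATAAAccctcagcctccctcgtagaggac
H2AC17: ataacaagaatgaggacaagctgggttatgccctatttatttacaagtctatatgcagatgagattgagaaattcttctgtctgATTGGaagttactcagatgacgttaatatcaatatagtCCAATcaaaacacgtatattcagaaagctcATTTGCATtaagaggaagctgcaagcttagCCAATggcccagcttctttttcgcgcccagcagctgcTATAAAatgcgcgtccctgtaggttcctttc
H1-2: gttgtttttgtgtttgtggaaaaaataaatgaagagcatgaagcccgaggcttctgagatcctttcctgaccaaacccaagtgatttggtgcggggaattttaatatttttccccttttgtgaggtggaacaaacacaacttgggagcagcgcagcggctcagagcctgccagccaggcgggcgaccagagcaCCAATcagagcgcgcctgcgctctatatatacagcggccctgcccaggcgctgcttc
H2BC9: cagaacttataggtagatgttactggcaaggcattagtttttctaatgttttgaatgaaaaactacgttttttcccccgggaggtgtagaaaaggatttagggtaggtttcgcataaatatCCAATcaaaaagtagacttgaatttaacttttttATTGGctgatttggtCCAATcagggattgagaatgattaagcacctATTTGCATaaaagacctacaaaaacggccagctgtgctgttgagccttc
H2AZ1: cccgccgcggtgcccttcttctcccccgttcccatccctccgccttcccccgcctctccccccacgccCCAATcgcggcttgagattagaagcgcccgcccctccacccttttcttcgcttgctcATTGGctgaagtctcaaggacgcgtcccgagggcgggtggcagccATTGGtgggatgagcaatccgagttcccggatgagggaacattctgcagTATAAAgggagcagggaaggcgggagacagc
The octamer stood 98 to 91 bases before the start in H2AC17 and 49 to 42 bases before it in H2BC9. TATAAA stood 30 to 25 bases before the start in H1-3 and 31 to 26 bases before it in both H2AC17 and H2AZ1. Among members named alone, promoters were found for 38 of 40 replication-dependent and 6 of 6 replacement genes. The octamer occurred in 15 of those 38 promoters (39.5%), in 0 of the 6 replacement promoters and in 1.66% of all 27305 promoters of this length. It was in 9 of 12 H2B and 6 of 8 H2A promoters and in 0 of 5 H1, 6 H3 and 7 H4 promoters. CCAAT was in 33 of 38 replication-dependent, 4 of 6 replacement and 33.0% of all promoters. For TATAAA the counts were 26 of 38 and 3 of 6, against 11.1% of all. These are matches of letters and not shown sites.

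Of the replication-dependent histone genes bright enough to compare, 9 of 20 were at least 1.5-fold lower with siIFITM1. Among the 9 were both H1 genes and 4 of 5 H2B genes. None of 6 replacement histone genes was at least 1.5-fold lower at its brightest probe set. The 6 were read at higher signals than most of the 20, where fewer genes reach 1.5-fold. The filter kept genes whose mean log2 signal over both arrays was at or above the median of all probe sets, a signal of 57.4. Of the 40 replication-dependent genes 20 passed, and 13 of the 20 had a log2 ratio (siIFITM1 over siLuc) below 0, against 52.6% of the 12225 genes that passed. Their median log2 ratio was -0.45, and that of all genes past the filter was -0.02. The 6 replacement genes, 5 of them below 0, had a median of -0.16, so the class medians differed by -0.28. At 2-fold, 3 replication-dependent genes were lower (H1-3, H2AC17 and H1-2), against 2.01% of all genes, and 1 was higher (H3C8), against 1.01%. H1-2 lay at the line and was at -0.99 after median centring, quantile normalization or a subtracted loess trend, which left 2 genes under each of these scalings, and a pseudocount of 32 left 1. At 1.5-fold, 9 of 20 were lower and 1 was higher, where 7.34% of all genes were lower and 511 of 12225 were higher. Among the lower genes, H1-3 (at both thresholds) and H2AC8 (at 1.5-fold) had a siIFITM1 signal below the filter floor. These 2 passed through their siLuc signal, where they were higher. The members that passed were chosen partly by signal and the 20 that did not pass were split evenly, with 10 below 0 and 10 above at signals between 2.86 and 71.2. Without the filter 23 of the 40 genes were below 0, against 53.1% of all 19775 genes, 7 were at least 2-fold lower, against 11% of all, and 4 at least 2-fold higher, against 8.99%. In RNA from a whole culture, fewer cells with a transcript and less of it per cell cannot be told apart.

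Most of the replication-dependent genes that passed were dim, and dim probe sets scatter more. Probe sets of 1 gene differed in log2 ratio with an SD of 0.193 at or above the 75th percentile of signal (393, called brighter here) and 0.496 between the median and that level (called dimmer). Of the 20 genes, 4 were brighter and 16 dimmer, while all 6 replacement genes were brighter. The 2 classes were thus read at unlike signals. The 4 brighter replication-dependent genes were all below 0, against 49.5% of brighter genes, and 2 were at least 1.5-fold lower, against 1.77%. The 6 replacement genes had 5 below 0 and 0 at least 1.5-fold lower. At like signal the contrast between classes rests on these 4 and 6 genes. Brighter replication-dependent probe sets that name several genes lay near 0, with 1 for H4 at -0.07 and 2 for H2A at -0.11 and 0.04. Of the 16 dimmer genes, 7 were at least 1.5-fold lower, against 17.1% of dimmer genes, and 3 at least 2-fold lower, against 5.39%. The 7 include H1-3 and H2AC8, and the 3 include H1-3, which passed the filter through their siLuc signal.

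**Figure D1:**
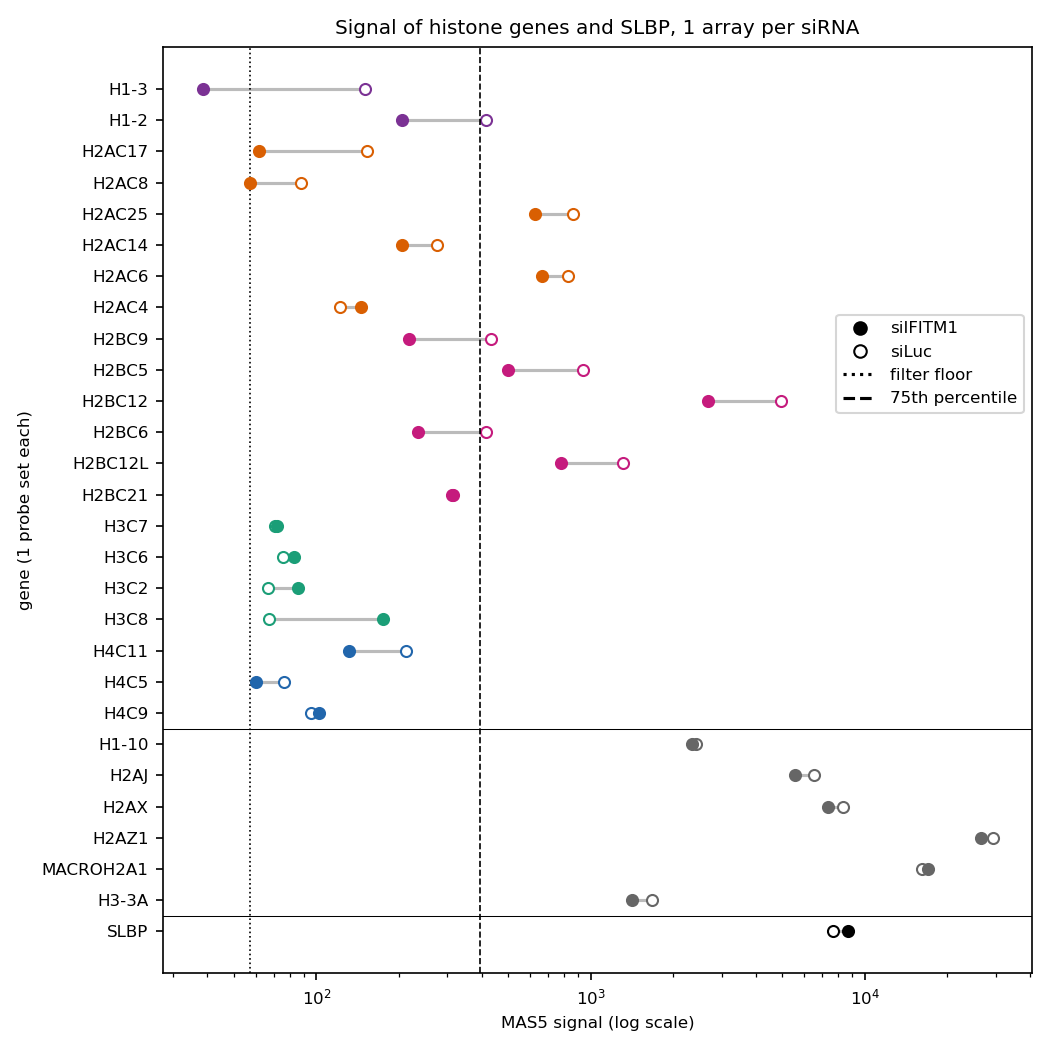
MAS5 signal (log scale) of each histone gene past the filter and of SLBP, 1 probe set per gene, with siIFITM1 as filled and siLuc as open points. H1 and H2B genes other than H2BC21 lie lower with siIFITM1, and the replacement genes (second block) have nearly coincident points.

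Of 5 replication-dependent linker histone genes 2 passed the filter, both dimmer, and both were at least 2-fold lower, against 5.39% of dimmer genes. H1-2, a widely expressed linker histone, had a signal of 205 with siIFITM1 and 417 with siLuc, a log2 ratio of -1.02. It lay at the 2-fold line and was at -0.99 after median centring, quantile normalization or a subtracted loess trend. H1-3, another somatic linker histone, had 38.5 with siIFITM1 and 150 with siLuc (-1.96). Its siIFITM1 signal was below the filter floor, so it passed through its siLuc signal, and with that signal raised to the floor H1-3 was 2.61-fold lower. H1-1, H1-4 and H1-5 did not pass the filter. The replacement linker histone H1-10 had 2336 and 2431, a ratio of -0.06, within the SD between probe sets of a gene. Each of these 3 ratios rested on 1 probe set.

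Of 12 replication-dependent H2B genes 5 passed the filter. Of the 5, 4 were at least 1.5-fold lower, against 7.34% of all genes past the filter. The 7 that did not pass had 3 values below 0 and 4 above. H2BC12 had a signal of 2678 with siIFITM1 and 4936 with siLuc (log2 ratio -0.88), and only 15 of the 7793 brighter genes had a lower ratio. H2BC5 had 499 and 935 (-0.91) at its brightest probe set, and its other probe set had 309 and 1136 (-1.88). Both probe sets of H2BC5 were thus lower with siIFITM1, but they differed from each other by more than the SD between probe sets of a gene. H2BC6 had 235 with siIFITM1 and 415 with siLuc (-0.82), and H2BC9 had 217 and 433 (-0.996). H2BC12L, annotated as an H2BC12-like gene, had 779 and 1313 (-0.75). H2BC21, an H2B gene of the second cluster (formerly HIST2), was the exception, with 316 with siIFITM1 and 312 with siLuc (0.02). A further 4 probe sets past the filter named several H2B genes each, and their ratios lay between -1.08 and -0.33. In all, 11 of 20 H2B probe sets passed and 10 of the 11 were below 0, where 52.6% of all genes past the filter were. H2B genes are near-identical in their coding sequence, and the probe sets of H2BC5, H2BC6, H2BC9, H2BC12L and H2BC21 carry IDs that mark probes shared between transcripts, so these are not independent readings of separate genes. The probe set of H2BC12 carries no such mark.

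Of 6 H2A genes past the filter 5 were below 0, against 52.6% of all genes that passed, and the median of the 6 was -0.45. H2AC17 had a signal of 61.7 with siIFITM1 and 152 with siLuc (-1.30), and H2AC8 had 57.2 and 88.1 (-0.62), the first of these 2 values being below the floor. H2AC25, of the third cluster, had 625 and 865 (-0.47), with a second probe set at -0.62. H2AC14 had 204 with siIFITM1 and 275 with siLuc (-0.43, within the SD of dimmer probe sets), and H2AC6 had 665 and 825 (-0.31). H2AC4 went the other way, with 146 and 122 (0.26), within the SD of dimmer probe sets. Probe sets that name 6 H2A genes of the first cluster were at -0.81 and -0.49. The 3 that name 2 H2A genes of the second cluster were at -0.11, 0.04 and 0.11.

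**Figure D2:**
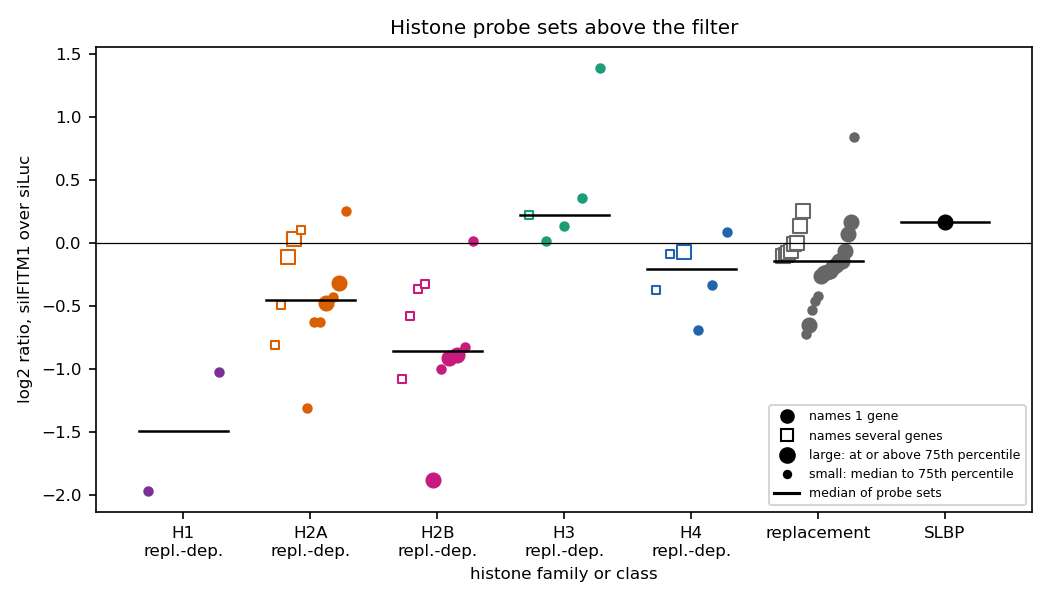
Log2 ratio (siIFITM1 over siLuc) of each member probe set past the filter, by family of replication-dependent histone and for replacement histones and SLBP. Filled circles name 1 gene and open squares several, large symbols are brighter and small ones dimmer, and bars are medians over probe sets. The H1, H2A, H2B and H4 groups lie mostly below 0 and all 5 H3 probe sets above it, and 2 probe sets annotated to both H2A and H3 genes are not drawn.

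Past the filter, probe sets that name only replication-dependent H3 genes lay above 0 and most of those for H4 below it. All 4 replication-dependent H3 genes past the filter were above 0, against 47.4% of all genes that passed. The median of the 4 was 0.25, and all were dimmer. H3C8 had a signal of 176 with siIFITM1 and 66.9 with siLuc (1.39), and its probe set carries the mark of shared probes. H3C2 had 85.5 and 66.6 (0.36), H3C6 had 82.7 and 75.2 (0.14) and H3C7 had 71.5 and 70.6 (0.02), all within the SD of dimmer probe sets. A probe set that names 10 H3 genes had 144 and 123 (0.22). Of the 2 probe sets annotated to both H2A and H3 genes, that of H3C4 and H2AC7 was at -0.39 and the other at 0.27. For H4, 2 of 3 genes past the filter were below 0, against 52.6% of all genes that passed, and the median of the 3 was -0.33. H4C11, 1.61-fold lower, had 132 with siIFITM1 and 213 with siLuc (-0.69), H4C5 had 60.4 and 76.0 (-0.33, within the SD of dimmer probe sets) and H4C9 had 102 and 95.7 (0.09). The brightest of the probe sets annotated to 14 H4 genes had 29224 and 30680, a ratio of -0.07, and the 2 dimmer ones that passed were at -0.08 and -0.37. The difference between families was not tested.

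Replacement histones stayed close to their siLuc signals at their brightest probe sets. H2AZ1, the H2A.Z variant found at promoters, had 26463 with siIFITM1 and 29186 with siLuc (-0.14), with a second probe set at -0.17. H2AX, which is phosphorylated at DNA breaks, had 7331 and 8349 (-0.19), and its 4 probe sets ran from -0.64 to -0.19. H2AJ had 5564 and 6512 (-0.23), and its 4 probe sets ran from -0.46 to 0.85. H3-3A, a gene for the H3 replacement variant, had 1418 with siIFITM1 and 1670 with siLuc (-0.24). The 8 probe sets that name both H3 replacement genes had ratios from -0.10 to 0.26 with 5 below 0. MACROH2A1, which carries a large extra domain and marks silent chromatin, had 17017 and 16180 (0.07) at its brightest probe set. Of its 7 probe sets 5 were below 0, down to -4.25 for a dim one below the filter, so its sign depended on the probe set. At these brightest probe sets none of the 6 replacement genes reached 1.5-fold in either direction. Other probe sets past the filter did, for H2AX (-0.64), MACROH2A1 (-0.72) and H2AJ (0.85).

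**Figure D3:**
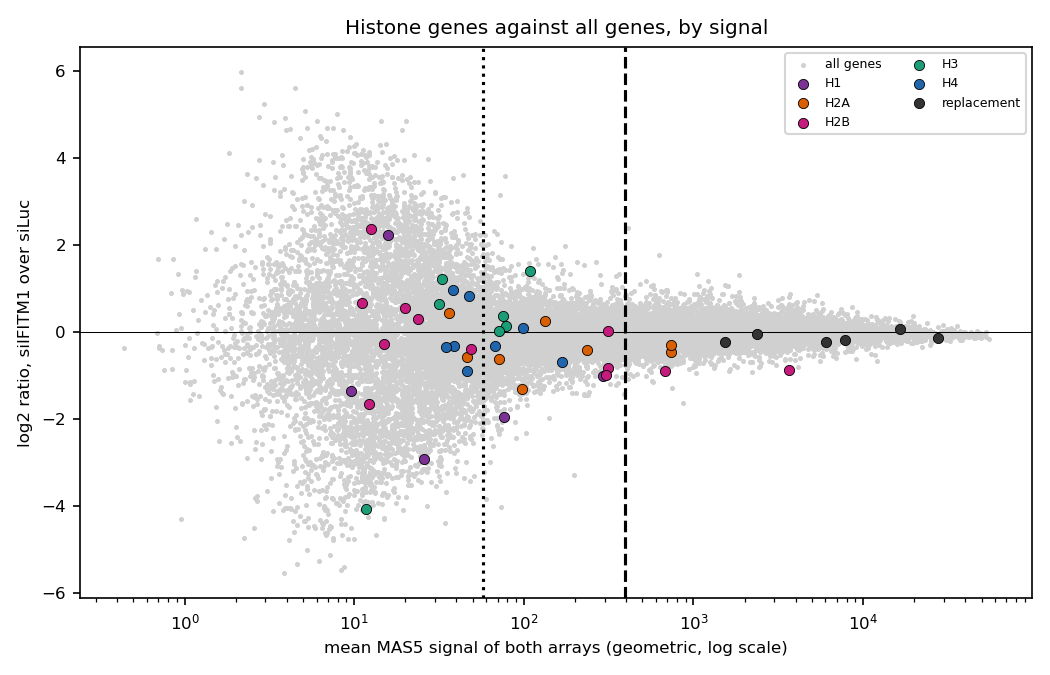
Log2 ratio (siIFITM1 over siLuc) against mean MAS5 signal (log scale), with all 19775 genes in grey and histone genes in colour. The dotted line is the filter floor of 57.4 and the dashed line the 75th percentile of 393. H2BC12 and H2BC5 lie at the lower edge of genes of like signal, and members left of the floor scatter on both sides of 0 with the other genes.

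SLBP had a signal of 8639 with siIFITM1 and 7677 with siLuc, a log2 ratio of 0.17 at its single probe set, within the SD of brighter probe sets. Factors of histone mRNA synthesis, processing and decay differed by small amounts. Of 35 listed genes 33 were measured and passed, with a median of 0.09 and none at 1.5-fold. Of the 33, 22 were above 0, where 47.4% of all genes past the filter were, and 11 below 0. The 22 include MIEF1 (0.11) and DBR1 (0.15), whose place among histone mRNA factors was not checked. The highest were ERI1, an exonuclease that trims histone mRNA ends (0.40), the cleavage factor CSTF3 (0.40) and E2F3 (0.38). The lowest were UPF1, a helicase of mRNA decay (-0.48), the scaffold SYMPK (-0.35) and the endonuclease CPSF3 (-0.23). NPAT, the coactivator of histone gene transcription, had a signal of 1228 with siIFITM1 and 1357 with siLuc (-0.14).

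Histone chaperones, which carry histones to DNA, had a median of 0.03, with 15 of 28 above 0. UBN2 (0.49), UBN1 (0.31) and the importin IPO4 (0.29) were highest, and CABIN1 (-0.44), CHAF1B of the replication-coupled assembly factor (-0.28) and RBBP4 (-0.23) lowest. UBN1, UBN2 and CABIN1 all belong to the complex that deposits the H3 replacement variant. Of 24 measured S phase genes 18 were above 0, beside the same 47.4% of all genes, with a median of 0.11. POLE2 (0.38), RFC3 (0.36) and CDC6 (0.24) were highest, and CDC45 (-0.46), MCM4 (-0.18) and TK1 (-0.07) lowest. None of the chaperone or S phase genes reached 1.5-fold. The replication-dependent histone genes, with a median of -0.45, and the S phase genes thus had medians of opposite sign. They were read at unlike signals, since all 24 S phase genes were brighter and 16 of the 20 histone genes were dimmer.

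**Figure D4:**
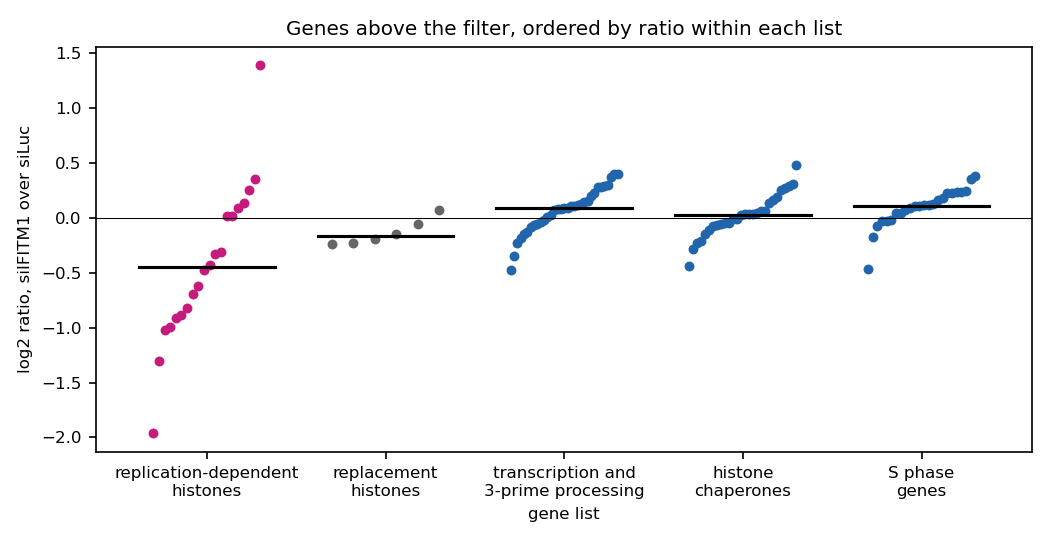
Log2 ratio (siIFITM1 over siLuc) of genes past the filter, ordered within each list, with bars at the medians. Replication-dependent histones reach from -1.96 to 1.39 with a median of -0.45. The lists of processing factors, chaperones and S phase genes stay between -0.48 and 0.49. In these lists 31 of 33, 25 of 28 and 24 of 24 genes are brighter, while 16 of the 20 replication-dependent genes are dimmer, where ratios scatter more.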

How the data were processed

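Total RNA was amplified and labelled with biotin, per the labels' protocols, and read on 1 single-colour array per siRNA. The deposited values are intensities, MAS5 signals on a linear scale, per the submitters' processing notes, with no version in the sources used here. The mean signal without 2% of probe sets at each end was 500.1 on both arrays, which points to a common scale set before deposit. No detection calls entered. Precision is limited by the number of arrays.

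Of 54613 probe sets that are not controls, 41091 name 1 gene, 1801 several and 11721 none, and 41037 found their Entrez identifier in the RefSeq table. Ratios are log2 of the deposited signals, siIFITM1 over siLuc, without further scaling. The probe set with the highest mean log2 signal stands for a gene. Every histone gene past the filter is named with its values, and of each other list the 3 highest and 3 lowest. NPAT and the probe sets with several genes were added after their values were seen. Members and lists were chosen with earlier results of these data known. The calculation was tested on simulated data. Alternatives were median centring, quantile normalization, a subtracted loess trend (span 0.3), a pseudocount of 32, other filters, the mean over probe sets and omission of shared probes. Python 3.11.15, numpy 2.4.6, pandas 2.3.3, statsmodels 0.14.6 and matplotlib 3.10.9 were used.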

Additional observations from a re-analysis of the deposited data

How the results depend on the processing

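The ratios of the 20 replication-dependent genes past the filter kept their sign under every alternative run for each. This is little support for the direction, since all alternatives reuse the same 2 arrays. A pseudocount cannot change a sign, and a mean over probe sets cannot for the 17 genes with 1 probe set. Alternatives were run one by one for 28 genes, the histone genes past the filter and SLBP. Of these only MACROH2A1 changed sign. It was at -0.86 as a mean over its probe sets and -0.14 without shared probes. The median of the replication-dependent genes was -0.43 after quantile normalization, -0.41 after median centring and -0.33 with no filter. With the filter at the 75th percentile it was -0.68 over 4 genes, of which 4 were below 0 and 0 were 2-fold lower, and the class difference was -0.51. With no filter 23 of 40 genes were below 0, 7 were 2-fold lower and 4 were 2-fold higher, and the class difference was -0.16. Without shared probes 7 of 11 were below 0. Median centring, quantile normalization and the loess trend each left 2 genes 2-fold lower, H1-2 being the one lost, a pseudocount of 32 left 1, and a threshold of 1.5-fold gave 9. H1-3 was at -1.37 with the pseudocount and -1.39 with the floor, and H2BC5 at -1.39 as a mean over probe sets. The median of the probe sets that name several genes was -0.08, and 0.0099 after quantile normalization. It pools both classes, since 8 of these 23 probe sets past the filter name H3 replacement genes (median -0.03). Among the others the median was -0.47 for 4 H2B, -0.11 for 5 H2A and -0.08 for 3 H4 probe sets. It was -0.06 for the 2 annotated to both H2A and H3, and the 1 for H3 was at 0.22. With 1 array per siRNA, differences between cultures and between siRNAs cannot be told apart. Raising signals to the floor and counting H2BC12L as replication-dependent (14 below 0) were chosen after the data were seen. No paired analysis was possible because each group holds 1 sample.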

Other observations

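Neighbouring histone genes often had unlike ratios. H2BC9 (-0.996) lies between H3C7 (0.02) and H3C8 (1.39) in the RefSeq gene order, and H3C6 (0.14) between H2AC8 (-0.62) and H1-3 (-1.96). H2BC12 (-0.88) adjoins H4C9 (0.09). H2BC5 (-0.91) and H2BC6 (-0.82) are next to each other, as are H3C2 (0.36) and H2AC4 (0.26). These are the 7 pairs of adjacent protein-coding genes in which both members passed the filter.

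Of the histone variants outside the set, H2AZ2 had a signal of 12848 with siIFITM1 and 14966 with siLuc (log2 ratio -0.22). CENPA, the H3 variant of centromeres, had 1507 and 1827 (-0.28). The 8 germline genes and pseudogenes all stayed below the filter, with no signal above 56.2 on either array.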
